A study of Mus musculus with 12 samples.

Results

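The genes described here are 10 components of the glial scar and perineuronal net, chosen by gene symbol from the 25238 genes of the deposited count table: the lecticans Acan, Bcan, Ncan and Vcan, the transmembrane chondroitin sulfate proteoglycans (CSPGs) Cspg4 and Cspg5, the tenascins Tnr and Tnc, and the link proteins Hapln1 and Hapln4. All 10 had a row in the table, and all 10 passed the filter on low counts in each comparison. The study asked how intracellular sigma peptide (ISP), a peptide that blocks the CSPG receptor PTPσ, acts on repair after ischemic stroke in mice. RNA-seq was run on peri-infarct cortex in 12 libraries, 4 labelled ISP (replicates 12, 14, 16 and 18), 4 labelled Veh (replicates 2, 6, 8 and 10) and 4 labelled control (replicates 19, 21, 36 and 38). Per the methods, stroke was made by blocking the left middle cerebral artery for 45 min in male mice of 10 to 12 weeks, of strain C57BL/6J or of the nestin-CreER-Ai9 line, and which of them gave the RNA is not stated. ISP mice received the peptide and Veh mice its vehicle, DMSO in saline, from day 1 post-stroke, and tissue of 4 mice per group was taken on day 14 as punches of 1 mm diameter and 1 mm depth. The vehicle is that of the labels and methods, whereas another passage of the study speaks of a scrambled peptide, so what the Veh mice were given is not certain. Differences between ISP and Veh are signed by the labels. The study gives its counts of changed genes in the opposite direction, so that sign is not certain either. The labels name the same tissue for the control libraries, but neither they nor the methods say whether their mice had surgery or an injection or when they were sampled, so stroke cannot be told apart from other differences between control cortex and the other groups.

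CSPGs are core proteins that carry sulfated sugar chains, and they are best known in injured brain as inhibitors of axon growth that accumulate around a lesion. Lecticans bind the long sugar hyaluronan at one end and tenascin-R at the other, and link proteins lock lecticans to hyaluronan, so that these molecules form 1 lattice, while Cspg4 and Cspg5 span the cell membrane. Around parvalbumin interneurons this lattice is condensed into the perineuronal net, while astrocytes, oligodendrocyte precursors and neurons each make some of its parts.

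Total counts were 19325979 to 28685864 in ISP libraries, 17442711 to 24706638 in Veh libraries and 21322702 to 29845629 in control libraries. Markers of cortical excitatory neurons were present in every library, with Slc17a7, the vesicular glutamate transporter, at 1868 to 2679 TMM-normalized CPM (reads scaled to a common library size with TMM factors over the 12 libraries). ISP 14 and ISP 18 stood apart from ISP 12 and ISP 16. Gfap, the astrocyte filament protein, was at 525, 1288, 290.5 and 2391 CPM in ISP 12, 14, 16 and 18, at 152, 309, 119 and 647 CPM in Veh 2, 6, 8 and 10, and at 24.5 to 31.4 CPM in control libraries. The fits of the 10 genes and of the gene lists were therefore repeated without ISP 14 and ISP 18. Of the 10 genes on each cell type marker list, those called higher in ISP than in control cortex (edgeR adjusted p under 0.1) were 9 for microglia, 8 for mature oligodendrocytes, 6 of 7 tested for infiltrating and activated myeloid cells, 5 of 7 tested for reactive astrocytes, 3 each for astrocytes and oligodendrocyte precursors, 2 for fibroblasts, and 0 for parvalbumin interneurons, excitatory neurons, pericytes, endothelial cells and neuroblasts, with 1 parvalbumin interneuron gene and 1 excitatory neuron gene lower, where 6.74% of all genes were called higher and 3.42% lower. Without ISP 14 and ISP 18 they were 3 for microglia, 3 of 7 tested for reactive astrocytes and 2 for astrocytes. Myeloid cells had 1 of 7 tested and the other lists 0, with 0 lower, where 71 of all 15497 genes were called higher and 19 lower. In Veh against control cortex these counts were 3 for microglia, 2 of 7 tested each for reactive astrocytes and myeloid cells, and 0 for the other lists. Among excitatory neuron genes 1 was lower, where 1.03% of all genes were called higher and 1.2% lower. Between ISP and Veh cortex edgeR called 0 genes on every list, against 0% of all genes. The median log2 fold change there was 1.57 for myeloid cells, 1.49 for reactive astrocytes, 0.81 for mature oligodendrocytes and 0.79 for microglia. It was -0.47 for fibroblasts, between -0.20 and 0.31 for the other lists and 0.02 for all genes. Without ISP 14 and ISP 18 the medians of the 5 named lists were -0.42, -0.01, 0.50, 0.03 and -1.59, in that order. In bulk tissue, fewer cells of a type and less RNA per cell cannot be told apart.

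The lattice genes lay in 2 ranges of abundance. Per kilobase of exon, Hapln4 averaged 63.2 ± 5.62 CPM per kb over the 12 libraries (SD), Bcan 60.9 ± 4.51, Ncan 40.5 ± 3.57 and Cspg5 35.8 ± 4.10. Tnr followed at 3.71 ± 0.88 CPM per kb, Hapln1 at 2.92 ± 0.66, Cspg4 at 1.38 ± 0.19, Acan at 0.64 ± 0.16, Vcan at 0.63 ± 0.18 and Tnc at 0.19 ± 0.20. The step from Cspg5 to Tnr was 9.65-fold and was seen in 12 of 12 libraries. The order within neighbours was less clear: Hapln4 was above Bcan in 7 of 12 libraries, Ncan above Cspg5 in 11, Tnr above Hapln1 in 10 and Acan above Vcan in 8, and in these 4 pairs the ranges over libraries overlapped. With the length of the longest transcript in place of all exons, Bcan was at 78.8 and Cspg5 at 45.8 CPM per kb, which put Bcan above Hapln4 and Cspg5 above Ncan.

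**Figure D1:**
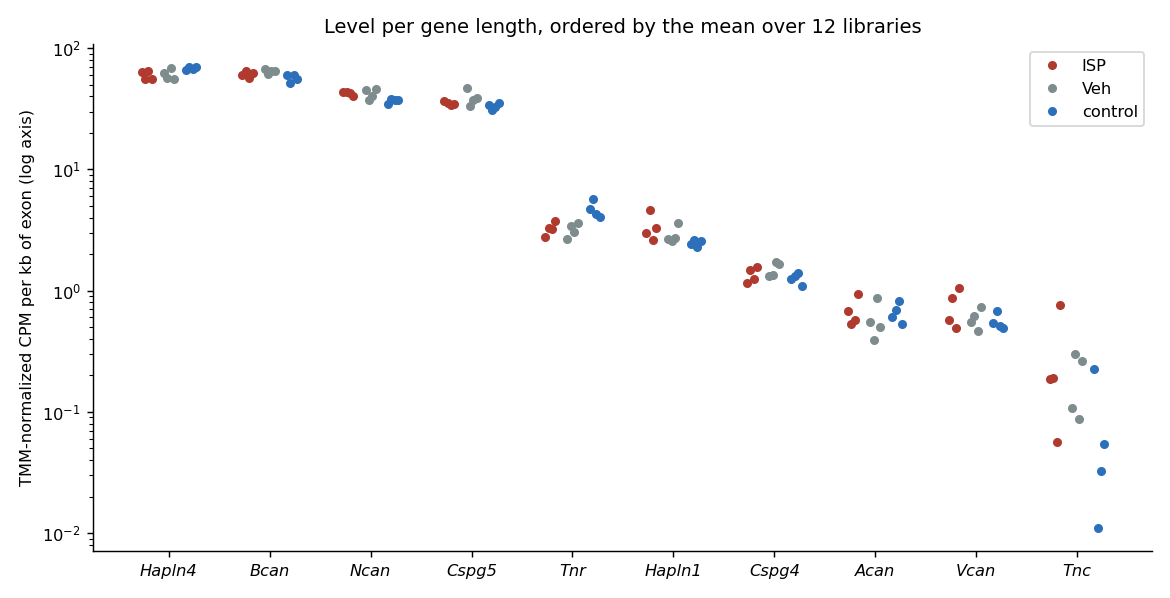
Level of the 10 genes in each library as TMM-normalized CPM per kilobase of exon on a log axis, with ISP, Veh and control libraries side by side and genes ordered by their mean over the 12 libraries. Hapln4, Bcan, Ncan and Cspg5 lie together at the top, and Tnc, at 0.011 to 0.755 CPM per kb, has the widest spread.

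Bcan and Ncan made up nearly all of the lectican level. Of the summed per-kilobase level of the 4 lecticans, Bcan was 58.0% ± 1.36 in ISP, 60.1% ± 1.54 in Veh and 59.9% ± 2.54 in control cortex (SD, n = 4 each). Ncan was 40.7% ± 1.68 in ISP, 38.9% ± 1.55 in Veh and 38.8% ± 2.43 in control cortex. Acan and Vcan were each under 1% in every library. The groups overlapped in each of these shares.

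Between ISP and Veh cortex, the comparison of the peptide with its control treatment, none of the 10 genes was called. By edgeR, 0 of 10 had an adjusted p under 0.1, against 0% of the 15214 genes tested, and 0 of 10 had an unadjusted p under 0.05, against 15.3% of all genes. The groups were free of overlap for 0 of the 10, against 6.81% of all genes, and DESeq2 called 0 of the 10, against 2.51% of its genes. The median log2 fold change of the 10 was 0.02, as was that of all genes tested. The 95% intervals of the difference bound Bcan to between -0.24 and 0.06 on the log2 scale, Ncan to between -0.16 and 0.19, Hapln4 to between -0.22 and 0.18 and Tnr to between -0.23 and 0.28, but leave Tnc between -0.84 and 2.15.

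Between Veh and control cortex, 1 of the 10 genes was called, Tnr, which was lower in Veh. The call rate among all 15126 genes was 1.03% higher and 1.2% lower. At an unadjusted p under 0.05, 3 members were higher (Bcan, Ncan and Cspg5), against 8.1% of all genes, and 1 was lower (Tnr), against 8.24%. Groups did not overlap for 1 member that was higher (Bcan), against 4.28% of all genes, and for 1 that was lower (Tnr), against 5.39%. DESeq2 called 0 members higher, against 2.83% of its genes, and 1 lower (Tnr), against 3.63%. The median log2 fold change was 0.20 for the 10 and 0.02 for all genes tested.

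Between ISP and control cortex, 2 of the 10 genes were called, Ncan higher and Tnr lower in ISP. Among all 15232 genes, 6.74% were called higher and 3.42% lower. At an unadjusted p under 0.05, 2 members were higher (Ncan and Hapln1), against 12.3% of all genes, and 2 were lower (Tnr and Hapln4), against 10%. The same genes were those whose groups did not overlap, 2 higher against 7.14% of all genes and 2 lower against 4.75%. DESeq2 called Ncan and Hapln1 higher, against 8.61% of its genes, and Tnr lower, against 5.09%. The median log2 fold change was 0.10 for the 10 and -0.01 for all genes tested. This comparison and the preceding one share their control libraries.

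**Figure D2:**
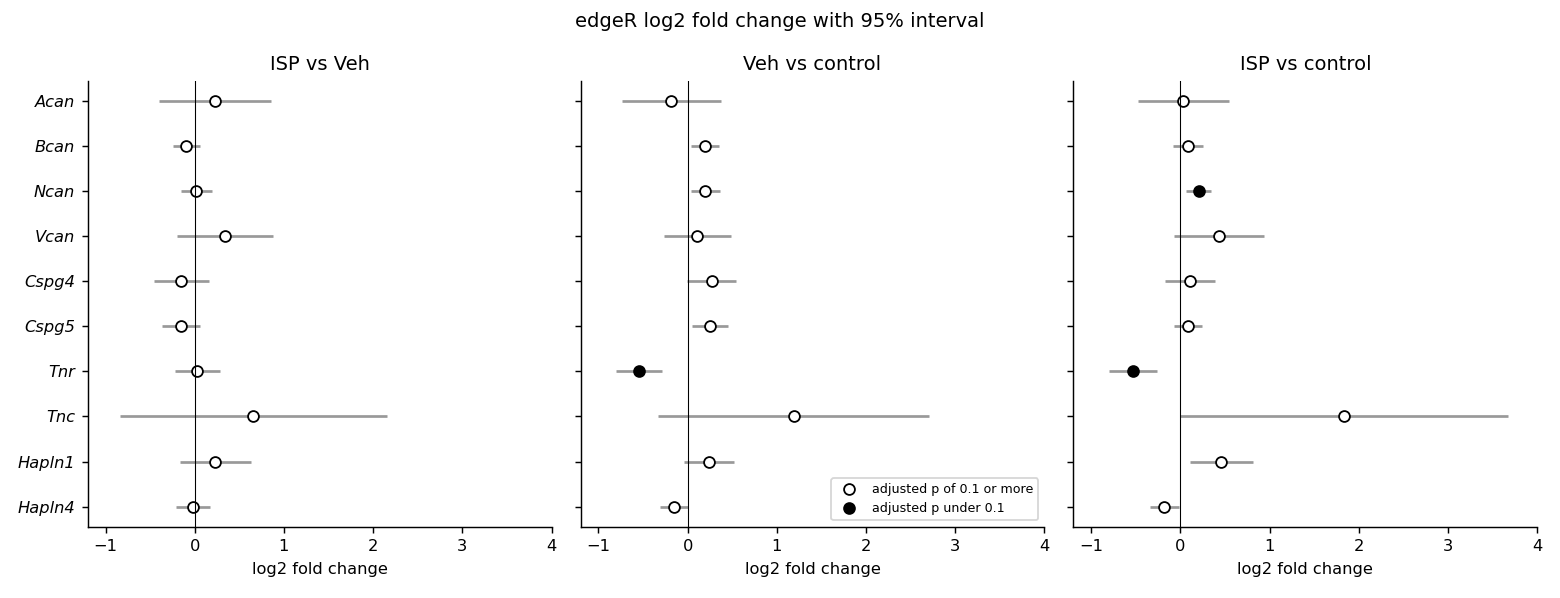
The edgeR log2 fold change of each of the 10 genes (points) with its 95% interval (lines) in ISP against Veh, Veh against control and ISP against control cortex, with filled points for an adjusted p under 0.1. Tnr is filled and near -0.5 in both comparisons with control cortex and near 0 between ISP and Veh, and Tnc has the widest interval in each panel.

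Among the lecticans, Ncan (neurocan, made by neurons and by reactive astrocytes, chromosome 8, 70093085 to 70120873, minus strand, mm10) was the 1 called gene. It was at 314, 315, 306 and 292 CPM in ISP 12, 14, 16 and 18, at 322, 269, 291 and 330.1 CPM in Veh 2, 6, 8 and 10, and at 251, 276, 269 and 267 CPM in control 19, 21, 36 and 38. All 4 ISP libraries lay above all 4 control libraries, and 3 of the Veh libraries did so, with Veh 6 inside the control range. Against control cortex, the log2 fold change was 0.21 ± 0.06 (SE) in ISP (1.15-fold, edgeR adjusted p = 0.0904, DESeq2 adjusted p = 0.024) and 0.20 ± 0.08 in Veh (edgeR adjusted p = 0.218). The call for ISP was close to the threshold: it was lost on leaving out any 1 library except control 21, with edgeR adjusted p of 0.096 to 0.227 over those fits, and was at adjusted p = 0.364 without ISP 14 and ISP 18, where the log2 fold change was 0.22. Between ISP and Veh cortex Ncan differed by 0.02 ± 0.08.

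Bcan (brevican, a lectican of the adult brain made largely by astrocytes and oligodendrocyte precursors, chromosome 3, 87987531 to 88000230, minus strand) was at 243, 262, 230.4 and 254 CPM in ISP 12, 14, 16 and 18, at 276, 251, 263 and 265 CPM in Veh 2, 6, 8 and 10, and at 246, 211, 244 and 227 CPM in control 19, 21, 36 and 38. The 4 Veh libraries lay above the 4 control libraries, while ISP libraries overlapped with both. Bcan had a log2 fold change of -0.09 ± 0.07 for ISP against Veh, 0.19 ± 0.07 for Veh against control (edgeR adjusted p = 0.204) and 0.09 ± 0.08 for ISP against control, none of them called. With a trend of fold change on transcript length and GC content removed, these values were -0.02, 0.12 and 0.06.

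Vcan (versican, a lectican of the developing brain and of oligodendrocyte precursors, chromosome 13, 89655312 to 89742509, minus strand) was at 8.29, 12.6, 7.14 and 15.2 CPM in ISP 12, 14, 16 and 18, at 8.01, 8.95, 6.76 and 10.6 CPM in Veh 2, 6, 8 and 10, and at 7.75, 9.90, 7.39 and 7.09 CPM in control 19, 21, 36 and 38. The values of ISP 14 and ISP 18 were the highest of the 12, and the other ISP libraries lay within the control range. The log2 fold change of ISP was 0.34 ± 0.24 against Veh (edgeR adjusted p = 0.52) and 0.43 ± 0.23 against control (adjusted p = 0.299), and that of Veh against control was 0.11 ± 0.17 (adjusted p = 0.814). Without ISP 14 and ISP 18 the ISP values were -0.15 and -0.06, so the direction turned, and with a trend of fold change on transcript length and GC content removed they were 0.31 and 0.69, and the Veh value 0.42. The oligodendrocyte precursor marker list also had its highest mean in ISP 18, at 0.69 above its mean over the 12 libraries on the log2 scale, and its second highest in ISP 14, at 0.28. Its summed level was 266 to 467 CPM in ISP, 255 to 355 CPM in Veh and 254 to 276 CPM in control libraries. The reactive astrocyte list was at 2.41 and 2.04 in ISP 18 and ISP 14. The microglia list was at 1.08 and 1.22 and the myeloid list at 2.63 and 2.74, and these lists peaked there too. In Veh 10, next highest for Vcan, they were at 0.96, 0.38 and 1.16, and the precursor list at -0.10. The part of any list in the Vcan values was not tested.

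Acan (aggrecan, the lectican that marks perineuronal nets, chromosome 7, 79053483 to 79115099, plus strand) was low in bulk cortex. It was at 5.10, 3.94, 4.29 and 6.95 CPM in ISP 12, 14, 16 and 18, at 4.15, 2.93, 6.53 and 3.77 CPM in Veh 2, 6, 8 and 10, and at 4.52, 5.18, 6.16 and 3.97 CPM in control 19, 21, 36 and 38, from 70 to 205 reads per library. The 3 groups overlapped throughout. The log2 fold change was 0.23 ± 0.29 for ISP against Veh, -0.18 ± 0.26 for Veh against control and 0.03 ± 0.23 for ISP against control, and at this depth the 95% interval of the first ran from -0.40 to 0.85. Single libraries moved these values: ISP against Veh was 0.03 without ISP 18 and 0.49 without Veh 8, Veh against control was -0.45 without Veh 8 and -0.03 without Veh 6, and ISP against control was -0.16 without ISP 18 and 0.15 without control 36. The parvalbumin interneuron list, whose cells carry most aggrecan nets in cortex, differed little between libraries, from -0.14 to 0.17 around its mean on the log2 scale. Pvalb itself was at 97.5 to 121 CPM in ISP, 101 to 123 CPM in Veh and 111 to 148 CPM in control libraries.

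**Figure D3:**
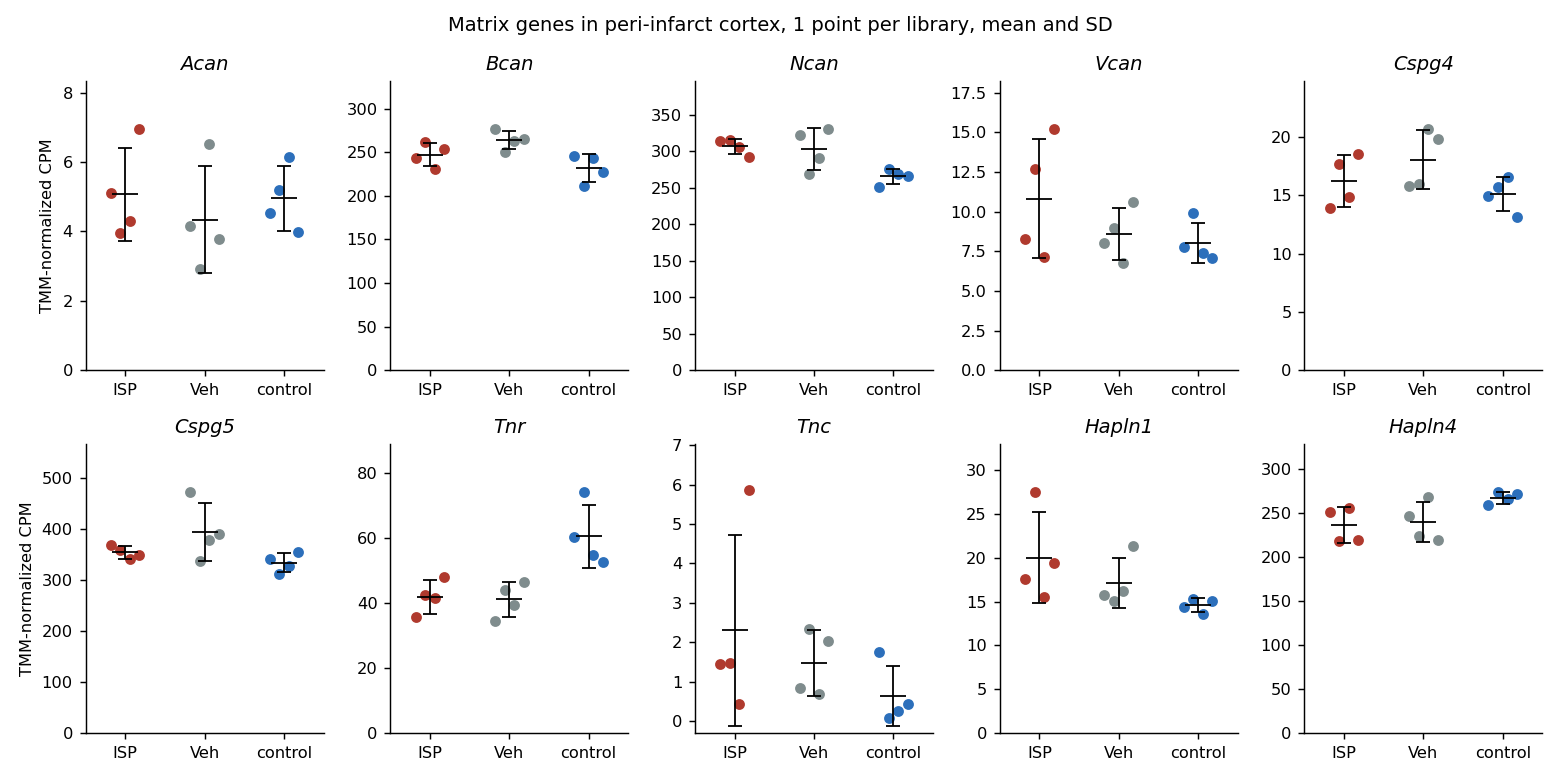
TMM-normalized CPM of the 10 genes in each library (points, 4 per group, ISP, Veh and control from left to right) with the mean and SD of the group in black. Tnr is lower in all ISP and Veh libraries than in any control library, the ISP values of Ncan and Hapln1 lie above and those of Hapln4 below the control values, and 1 ISP library sets the Tnc mean.

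The transmembrane CSPGs were called in no comparison. Cspg5 (neuroglycan C, a neuronal proteoglycan with an EGF-like domain, chromosome 9, 110243783 to 110262576, plus strand) was at 369, 358, 341 and 348 CPM in ISP 12, 14, 16 and 18, at 472, 338, 378 and 389.6 CPM in Veh 2, 6, 8 and 10, and at 341, 312, 327 and 355 CPM in control 19, 21, 36 and 38. Veh 2 was the highest library, and the Veh group overlapped with both others. Against control cortex the log2 fold change was 0.25 ± 0.09 in Veh (edgeR adjusted p = 0.204, and a log2 fold change of 0.15 with adjusted p = 0.456 without Veh 2) and 0.08 ± 0.07 in ISP, and ISP differed from Veh by -0.16 ± 0.10.

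Cspg4 (NG2, the surface proteoglycan of oligodendrocyte precursors and pericytes, chromosome 9, 56865033 to 56899870, plus strand) was at 13.9, 17.7, 14.9 and 18.6 CPM in ISP 12, 14, 16 and 18, at 15.8, 16.0, 20.7 and 19.8 CPM in Veh 2, 6, 8 and 10, and at 15.0, 15.7, 16.6 and 13.1 CPM in control 19, 21, 36 and 38. The groups overlapped, with Veh 8 and Veh 10 the highest. Cspg4 had a log2 fold change of -0.15 ± 0.14 for ISP against Veh, 0.27 ± 0.13 for Veh against control (edgeR adjusted p = 0.318) and 0.11 ± 0.13 for ISP against control. Pdgfra, which marks the same precursors, was at 20.3 to 29.2 CPM in ISP, 18.5 to 30.5 CPM in Veh and 21.9 to 26.7 CPM in control libraries, and the pericyte marker Pdgfrb at 20.1 to 28.3 CPM in ISP, 16.0 to 29.0 CPM in Veh and 23.0 to 25.7 CPM in control libraries. On the whole lists, the median log2 fold change for ISP against Veh was 0.31 for oligodendrocyte precursors, with 9 of 10 genes positive. It was -0.20 for pericytes and smooth muscle, with 9 of 10 negative, and 0.02 for all genes, with 8063 of 15214 positive. The pericyte list was highest in Veh 10, at 0.56 above its mean over the 12 libraries on the log2 scale, and was at 0.06 in Veh 8. The part of either list in the Cspg4 values was not tested.

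The tenascins were the pair with the clearest group difference and the widest spread. Tnr encodes tenascin-R, which is made by oligodendrocytes and some interneurons and cross-links lecticans in perineuronal nets, and Tnc encodes tenascin-C, a glycoprotein of development and injury made by immature and reactive astrocytes. The 250 bases before the annotated start of each are shown because these are the member called in both comparisons with control cortex and the most variable member. Both are from RefSeq on GRCm38.p6, on the strand of the gene, for Tnr chr1:159523519-159523768 (plus strand) and for Tnc the upstream of 2 starts at chr4:64047016-64047265 (minus strand). Capitals mark a match to 1 of 4 motifs searched on both strands, and no matches overlapped.
Tnr promoter: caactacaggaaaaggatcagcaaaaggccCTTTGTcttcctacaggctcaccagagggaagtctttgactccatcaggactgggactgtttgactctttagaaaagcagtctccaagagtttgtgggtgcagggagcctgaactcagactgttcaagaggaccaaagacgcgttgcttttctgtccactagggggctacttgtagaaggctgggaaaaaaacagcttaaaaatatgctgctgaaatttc
Tnc promoter: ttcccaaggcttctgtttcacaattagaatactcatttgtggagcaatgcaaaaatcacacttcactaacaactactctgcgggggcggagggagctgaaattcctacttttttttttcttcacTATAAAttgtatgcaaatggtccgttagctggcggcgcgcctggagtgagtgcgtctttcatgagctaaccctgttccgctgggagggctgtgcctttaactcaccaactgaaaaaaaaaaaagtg
The motifs were TATAAA (the TBP site), TGANTCA (the AP-1 site), TTCNNNGAA (the STAT site) and ACAAAG (the SOX core), which 12.4%, 6.75%, 7.02% and 16.5% of 32851 RefSeq promoters of this length hold. The Tnr window held ACAAAG on the opposite strand, with its first base at -220, and the Tnc window held TATAAA at -126. CpG dinucleotides numbered 2 in the Tnr window and 8 in the Tnc window, against a median of 6. RefSeq promoters were matched for 8 of the 10 genes.

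Tnr (chromosome 1, 159523769 to 159931729, plus strand) was at 35.5, 42.3, 41.3 and 48.0 CPM in ISP 12, 14, 16 and 18, at 34.5, 43.9, 39.2 and 46.5 CPM in Veh 2, 6, 8 and 10, and at 60.3, 74.0, 54.8 and 52.5 CPM in control 19, 21, 36 and 38. Every ISP and Veh library was below every control library, and ISP and Veh covered nearly the same range. The mean was 41.8 ± 5.13 CPM in ISP, 41.0 ± 5.28 CPM in Veh and 60.4 ± 9.65 CPM in control cortex (SD, n = 4 each). Tnr was lower than in control cortex by a log2 fold change of -0.55 ± 0.12 in Veh (0.685-fold, edgeR adjusted p = 0.0747, DESeq2 adjusted p = 0.0032) and of -0.53 ± 0.12 in ISP (0.692-fold, edgeR adjusted p = 0.0361, DESeq2 adjusted p = 0.0022). ISP differed from Veh by 0.03 ± 0.12, with a 95% interval of -0.23 to 0.28.

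The Tnr difference was as large without ISP 14 and ISP 18, where the log2 fold change of ISP against control was -0.65, with an edgeR adjusted p of 0.104 and a DESeq2 adjusted p of 0.0032. Leaving out any 1 library kept the ISP call, with adjusted p of 0.033 to 0.099. In Veh the edgeR call was lost without Veh 2 (adjusted p = 0.149), Veh 8 (0.121), control 21 (0.191) or control 36 (0.172), with log2 fold changes of -0.61 to -0.44 over all such fits. Tnr has one of the longer transcripts, at 12202 bases, and when a trend of fold change on transcript length and GC content was removed, its log2 fold change became -0.27 in Veh and -0.30 in ISP. The mature oligodendrocyte list had a summed level of 4874 to 11715 CPM in ISP, 2910 to 7236 CPM in Veh and 3395 to 5115 CPM in control libraries, with 8 of 10 genes called higher in ISP and 0 of 10 called in Veh, and its part in the Tnr values was not tested. Tnr shares 443 exon bases with a gene on the opposite strand (Gm38039), and the library kit as described does not mark strand, so reads from these bases cannot be told apart.

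**Figure D4:**
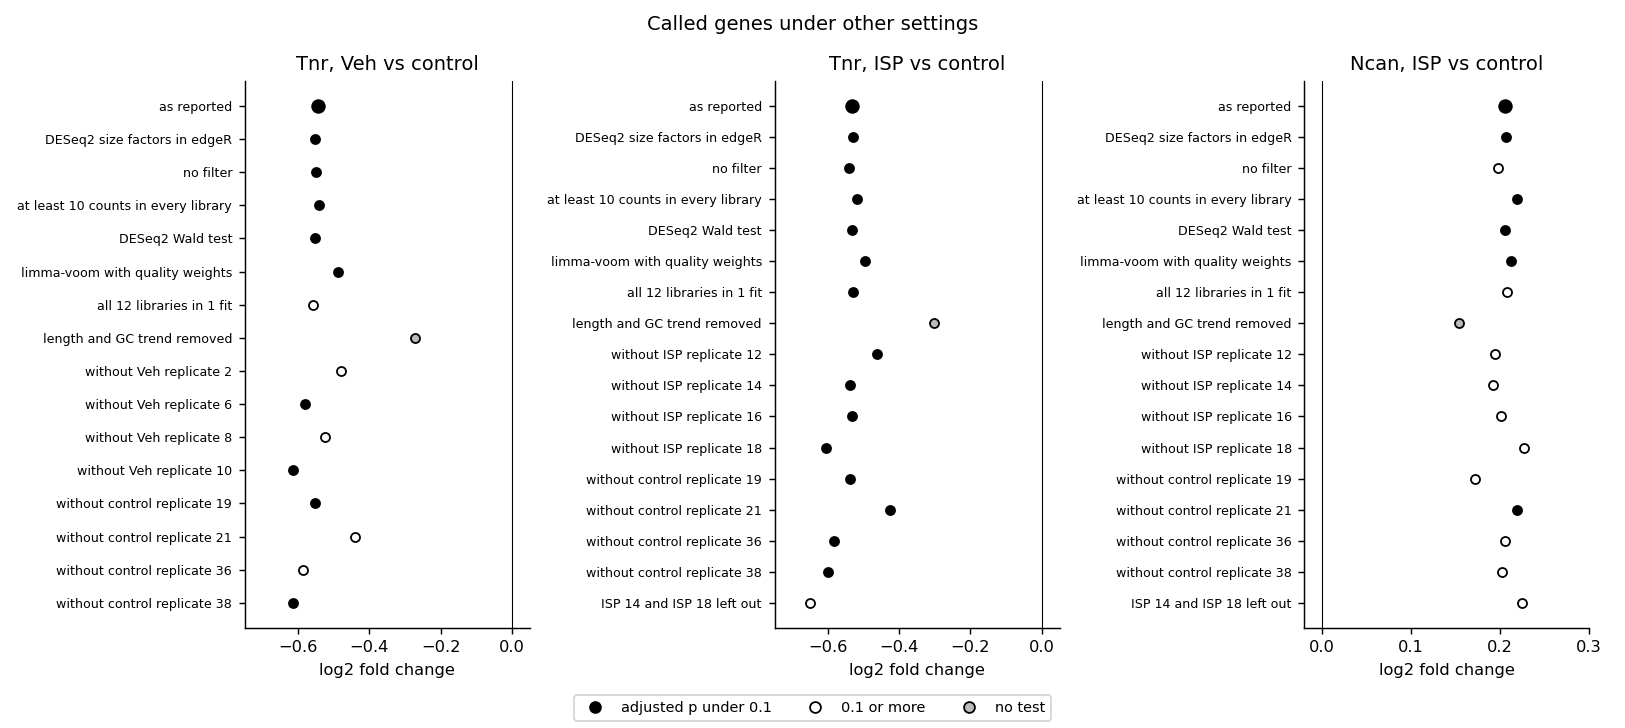
The log2 fold change of Tnr (Veh against control and ISP against control) and of Ncan (ISP against control) as reported and under each other setting or with each library left out, with filled points for an adjusted p under 0.1, open points for 0.1 or more and grey points for values without a test. All Tnr points lie between -0.65 and -0.27 and all Ncan points between 0.15 and 0.23, while the calls, most of all for Ncan, change with the library left out.

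Tnc (chromosome 4, 63959785 to 64047015, minus strand) was low and uneven. It was at 1.44, 1.48, 0.43 and 5.86 CPM in ISP 12, 14, 16 and 18, at 0.83, 2.33, 0.68 and 2.03 CPM in Veh 2, 6, 8 and 10, and at 1.75, 0.09, 0.25 and 0.43 CPM in control 19, 21, 36 and 38, from 2 to 173 reads per library. ISP 18 was the highest library, control 19 lay among the higher stroke libraries, and the groups overlapped. Tnc had a log2 fold change of 0.66 ± 0.68 for ISP against Veh, 1.19 ± 0.70 for Veh against control (edgeR adjusted p = 0.436) and 1.84 ± 0.85 for ISP against control (adjusted p = 0.225).

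Single libraries set these Tnc values. Without ISP 18 the log2 fold change was -0.40 for ISP against Veh and 0.78 for ISP against control, and without ISP 14 and ISP 18 it was -0.66 and 0.52. Without control 19 it was 2.52 for Veh against control (edgeR adjusted p = 0.0945) and 3.17 for ISP against control (adjusted p = 0.0983), which passed the threshold. The reactive astrocyte list was highest in ISP 18 and ISP 14, at 2.41 and 2.04 above its mean over the 12 libraries on the log2 scale, while control 19, at -0.82, was the highest of the control libraries, which ranged down to -1.37. Its summed level was 392 to 2965 CPM in ISP, 198 to 799 CPM in Veh and 87.7 to 111 CPM in control libraries, with Lcn2 at 0 in every control library, and its part in the Tnc values was not tested. Tnc shares 176 exon bases with a gene on the opposite strand (8030451A03Rik).

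The link proteins had fold changes of opposite sign against control cortex, and neither was called by edgeR. Hapln1 (the link protein of cartilage and of perineuronal nets, chromosome 13, 89539796 to 89611652, plus strand) was at 17.6, 27.5, 15.6 and 19.4 CPM in ISP 12, 14, 16 and 18, at 15.8, 15.1, 16.2 and 21.3 CPM in Veh 2, 6, 8 and 10, and at 14.3, 15.3, 13.6 and 15.1 CPM in control 19, 21, 36 and 38. All ISP libraries lay above all control libraries, with ISP 14 the highest, and ISP overlapped with Veh. The log2 fold change was 0.23 ± 0.18 for ISP against Veh, 0.24 ± 0.13 for Veh against control and 0.46 ± 0.16 for ISP against control (edgeR adjusted p = 0.122, DESeq2 adjusted p = 0.081). ISP against Veh was 0.04 without ISP 14 and 0.13 with the length and GC trend removed, and Veh against control was 0.11 without Veh 10 and 0.40 with the trend removed. For ISP against control it was 0.26 without ISP 14 (adjusted p = 0.316), 0.55 without ISP 16 (adjusted p = 0.0451) and 0.19 without ISP 14 and ISP 18 (adjusted p = 0.655). ISP 14 and ISP 18 were the libraries with the highest reactive astrocyte, microglia and myeloid lists, while Hapln1 was higher in Veh 10 than in ISP 18. The part of these lists in the Hapln1 values was not tested.

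Hapln4 (the brain link protein that pairs with brevican around synapses, chromosome 8, 70083457 to 70090862, plus strand, beside Ncan) was at 252, 218, 256 and 219.8 CPM in ISP 12, 14, 16 and 18, at 247, 224, 269 and 219 CPM in Veh 2, 6, 8 and 10, and at 259, 274, 266 and 272 CPM in control 19, 21, 36 and 38. All ISP libraries were below all control libraries, by a narrow gap for ISP 16, and Veh 8 reached into the control range. The log2 fold change was -0.02 ± 0.09 for ISP against Veh, -0.15 ± 0.07 for Veh against control (edgeR adjusted p = 0.336) and -0.18 ± 0.07 for ISP against control (adjusted p = 0.174). Without ISP 14 and ISP 18 the last was -0.07, and with the length and GC trend removed it was -0.29. The per-kilobase ratio of Hapln1 to Hapln4 was 0.057 ± 0.019 in ISP, 0.048 ± 0.011 in Veh and 0.036 ± 0.0015 in control cortex (SD, n = 4 each), and its range of 0.040 to 0.084 in ISP and of 0.040 to 0.065 in Veh libraries was above that of 0.034 to 0.037 in control libraries. ISP 12 and ISP 16, at 0.047 and 0.040, were the lowest of the ISP libraries. This ratio was chosen with the values known and was not tested.

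Genes that bind, cut or sense this lattice were counted on 3 further lists. Of 21 hyaluronan, net and scar matrix partners, 18 were tested in each comparison. In ISP against Veh cortex 0 were called by edgeR, against 0% of all genes. At an unadjusted p under 0.05 there were 4, against 15.3%, and DESeq2 called 0, against 2.51% of its genes. In Veh against control cortex 1 was called higher, against 1.03% of all genes, and 0 lower, against 1.2%. At an unadjusted p under 0.05, 4 were higher, against 8.1%, and 1 lower, against 8.24%. DESeq2 called 2 higher, against 2.83% of its genes, and 0 lower, against 3.63%. In ISP against control cortex 4 were called higher, against 6.74% of all genes, and 0 lower, against 3.42%. At an unadjusted p under 0.05, 5 were higher, against 12.3%, and 1 lower, against 10%. DESeq2 called 4 higher, against 8.61% of its genes, and 0 lower, against 5.09%. The list medians were 0.08, 0.33 and 0.30 on the log2 scale, against 0.02, 0.02 and -0.01 for all genes tested. The gene that edgeR called in both comparisons with control cortex was Cd44, the hyaluronan receptor, with a log2 fold change of 1.98 ± 0.43 in Veh (edgeR adjusted p = 0.0746) and 3.81 ± 0.67 in ISP (adjusted p = 0.0205). Cd44 was at 2.68, 16.5, 2.70 and 19.3 CPM in ISP 12, 14, 16 and 18, at 2.08, 2.37, 1.86 and 5.23 CPM in Veh 2, 6, 8 and 10, and at 0.47 to 1.10 CPM in control libraries, so that no ISP or Veh library overlapped with control cortex. Without ISP 14 and ISP 18 the value for ISP was 1.87 ± 0.46 (adjusted p = 0.156). The others called in ISP were Hapln2, the link protein of myelinated axon nodes (1.12 ± 0.23), and the small leucine-rich proteoglycans Dcn (1.69 ± 0.45) and Bgn (1.30 ± 0.38). With ISP 14 and ISP 18 left out these were 0.82 ± 0.18 for Hapln2, the 1 gene still called (adjusted p = 0.0938), 0.56 ± 0.40 for Dcn (adjusted p = 0.65) and 0.38 ± 0.23 for Bgn (adjusted p = 0.595). That fit called 71 of all 15497 genes higher and 19 lower. DESeq2 called Dcn in Veh as well, where its edgeR log2 fold change was 1.96 ± 0.53 (edgeR adjusted p = 0.105, DESeq2 adjusted p = 0.0073). Dcn was at 1.98 to 8.54 CPM in ISP, 2.85 to 15.6 CPM in Veh and 0.95 to 2.04 CPM in control libraries, with its highest value in Veh 10, where the fibroblast list, which holds Dcn, also peaked, at 2.15 above its mean over the 12 libraries on the log2 scale.

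Of 10 lectican-cleaving ADAMTS proteases and their TIMP inhibitors, 10 were tested in ISP against Veh and in Veh against control cortex. By edgeR 0 were called in both, against 0% of all genes in the first and 1.03% higher and 1.2% lower in the second. At an unadjusted p under 0.05, 2 passed in ISP against Veh, against 15.3% of all genes. In Veh against control 1 was higher, against 8.1%, and 0 lower, against 8.24%. DESeq2 called 0 in both, against 2.51% of its genes in ISP against Veh. Its shares in Veh against control were 2.83% higher and 3.63% lower. In ISP against control cortex 3 of 9 tested were higher and 0 lower: Adamts4, which cuts brevican and aggrecan (0.83 ± 0.21, edgeR adjusted p = 0.0475), and the inhibitors Timp3 (0.42 ± 0.10, adjusted p = 0.0383) and Timp2 (0.35 ± 0.10, adjusted p = 0.0676). Of all genes in this comparison 6.74% were called higher and 3.42% lower. At an unadjusted p under 0.05, 3 of the list were higher, against 12.3% of all genes, and 0 lower, against 10%. DESeq2 called 4 higher, against 8.61% of its genes, and 0 lower, against 5.09%. Without ISP 14 and ISP 18, where edgeR called 71 of 15497 genes higher and 19 lower, Adamts4, Timp3 and Timp2 were not called. Their values were 0.55 ± 0.20, 0.26 ± 0.10 and 0.17 ± 0.09, with edgeR adjusted p of 0.374 to 0.542. Adamts4 was at 45.3, 45.6, 34.6 and 67.6 CPM in ISP 12, 14, 16 and 18, at 16.3, 45.4, 22.9 and 18.2 CPM in Veh 2, 6, 8 and 10, and at 19.6, 32.3, 34.4 and 22.9 CPM in control 19, 21, 36 and 38. ISP 16 lay only just above the highest control library, and Veh 6 was among the ISP values. The libraries highest in Adamts4 and Hapln2, ISP 18 among ISP and Veh 6 among Veh, were also the highest of their groups on the mature oligodendrocyte list, at 1.17 and 0.49 on the log2 scale, and the part of these cells was not tested.

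The CSPG receptor list held 6 genes, Ptprs, Ptprf, Ptprd, Rtn4r, Rtn4rl1 and Egfr, and edgeR called 0 of them in any comparison. Of all genes it called 0% in ISP against Veh, and 1.03% higher and 1.2% lower in Veh against control. In ISP against control it called 6.74% higher and 3.42% lower. Without ISP 14 and ISP 18 it also called 0 of the 6. Those fits called 0 of 15493 genes in ISP against Veh, and 71 of 15497 higher and 19 lower in ISP against control. At an unadjusted p under 0.05, 2 of the 6 were lower in ISP against Veh cortex, where 15.3% of all genes passed in either direction. In Veh against control cortex 1 was higher, against 8.1%, and 1 lower, against 8.24%, and in ISP against control cortex 3 were lower, against 10%. DESeq2 called 1 lower in ISP against Veh (2.51% of its genes in either direction), 1 lower in Veh against control (3.63% lower) and 2 lower in ISP against control cortex (5.09% lower). The gene called in Veh against control was Ptprd (edgeR log2 fold change -0.40 ± 0.12 and adjusted p = 0.142, DESeq2 adjusted p = 0.043). Ptprs, which encodes the PTPσ that ISP targets, had a log2 fold change of -0.08 ± 0.08 for ISP against Veh, -0.10 ± 0.08 for Veh against control and -0.19 ± 0.07 for ISP against control (edgeR adjusted p = 0.126, DESeq2 adjusted p = 0.0525). DESeq2 called the Nogo receptor gene Rtn4r in ISP against Veh cortex (edgeR log2 fold change -0.44 ± 0.13 and adjusted p = 0.263, DESeq2 adjusted p = 0.064). Rtn4r was at 132, 98.5, 148 and 110 CPM in ISP 12, 14, 16 and 18. It was at 191, 145, 174 and 153 CPM in Veh 2, 6, 8 and 10, so that ISP 16 lay above Veh 6. Without ISP 14 and ISP 18 its edgeR log2 fold change was -0.24 ± 0.12 (edgeR adjusted p = 0.646). The genes given with values in this paragraph were singled out after those values were seen.

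The profile of each member over the 12 libraries was set beside those of 13492 other genes by the root mean square difference of log2 CPM after centring each gene on its own mean. The closest 2 were Abitram and Kcnab3 for Acan (0.19 and 0.22), Lias and Man1b1 for Bcan (0.051 and 0.053), Rragc and Tapt1 for Ncan (0.059 and 0.063), and Cmtm6 and Plxdc2 for Vcan (0.11 and 0.13). For Cspg4 they were Eif2a and Fundc2 (both 0.12), for Cspg5 Sumo3 and Tspan7 (0.056 and 0.058), for Tnr Pura and Bdp1 (0.10 and 0.11), for Tnc Ifitm3 and Tgif1 (0.73 and 0.75), for Hapln1 Cyfip1 and Arhgef26 (0.10 and 0.11), and for Hapln4 Kif3c and Ttbk1 (0.048 and 0.050). The members themselves were left out of this search. Tnc had the largest distances and also the largest SD of its own on this scale, 1.35, where that of Acan was 0.34 and that of Cspg4 0.19.

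The members did not share 1 pattern over the libraries. ISP 18 was the highest library for Tnc, Vcan and Acan but not for Bcan, Ncan or Cspg5, ISP 14 was the highest for Hapln1, and control 21 was the highest for Tnr and Hapln4 and the lowest for Bcan, Cspg5 and Tnc. The spread over the 12 libraries, as the SD of log2 CPM, was 0.11 for Bcan, 0.13 for Ncan and Hapln4, 0.15 for Cspg5, 0.20 for Cspg4, 0.29 for Hapln1, 0.32 for Tnr, 0.36 for Acan and Vcan and 1.41 for Tnc. The summed CPM of all 10 was 1217 to 1259 in ISP, 1170 to 1397 in Veh and 1194 to 1213 in control libraries.

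**Figure D5:**
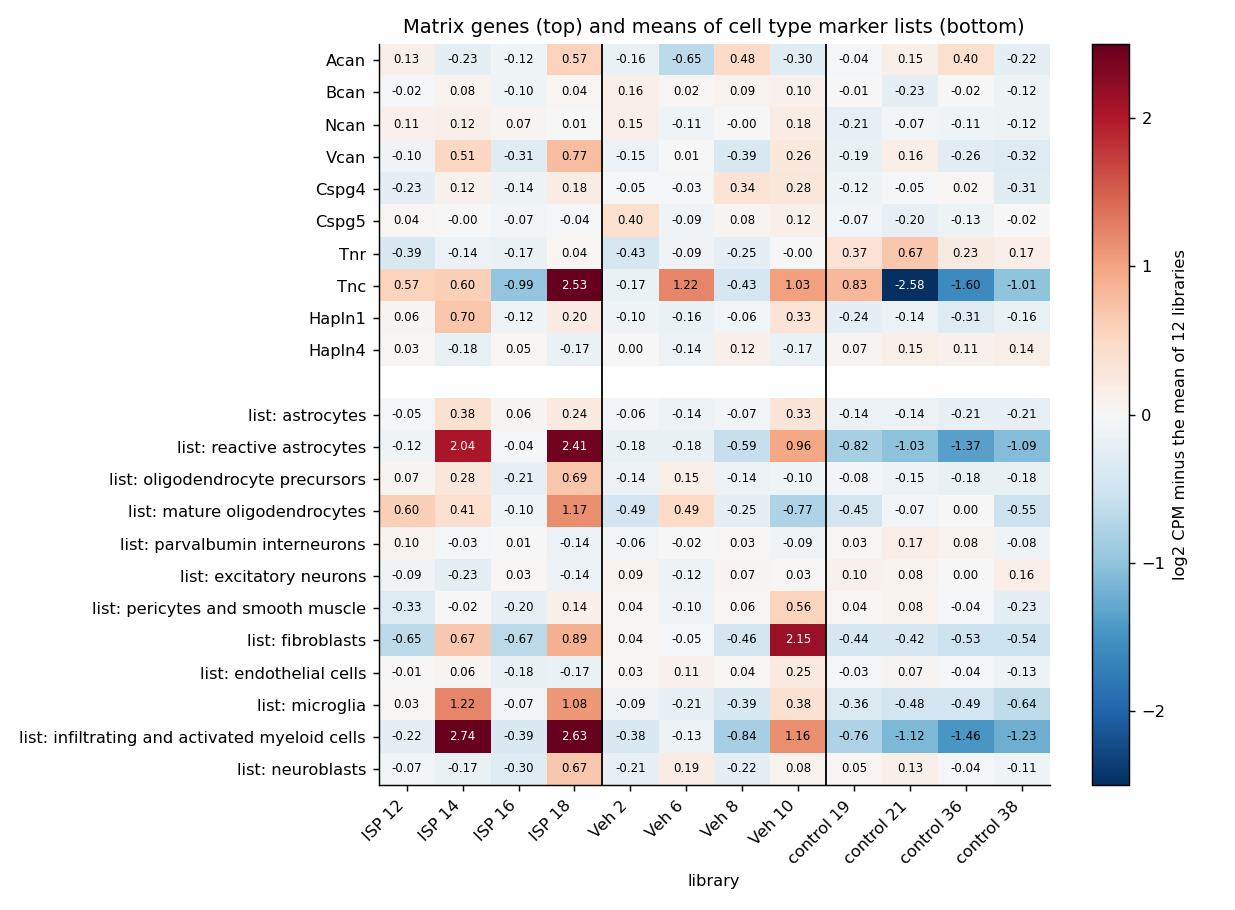
Log2 CPM of each of the 10 genes (top) and mean of each cell type marker list (bottom) minus its own mean over the 12 libraries, with libraries in columns as ISP, Veh and control, red above and blue below that mean. The reactive astrocyte and myeloid lists are highest in ISP 14 and ISP 18, Tnc is highest in ISP 18 at 2.53 and lowest in control 21 at -2.58, and Bcan, Ncan and Hapln4 stay within 0.25 of their means.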

How the data were processed

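RNA from 12 punches was made into oligo(dT) libraries and sequenced on a NovaSeq. The authors used HISAT2 (alignment to mm10), HTSeq with default options (counting) and DESeq2 (testing), their versions being not given in the sources used here, and deposited a table of raw counts of 25238 genes. edgeR 4.0.16 under R 4.3.3 was run on the 8 libraries of each pair of groups (filterByExpr, TMM, quasi-likelihood F test), with Benjamini-Hochberg adjustment over all genes and calls at adjusted p under 0.1. Two-sided p-values weigh the difference between groups against the spread between these libraries. DESeq2 1.42.0, limma 3.58.1 voom with quality weights, other filters and scalings, 1 fit of all 12 libraries and left-out libraries were alternatives. Exon lengths came from GENCODE M21 and promoters from RefSeq GRCm38.p6. The 18 pairs of libraries within groups differed beyond sampling noise (chi-square per degree of freedom 10.7 to 48.4). On counts simulated for ISP against control with 15232 genes, edgeR found 37.3% of those altered by a log2 value of 0.5 and 76.1% at a log2 value of 1. Members and lists were chosen with earlier results of these data known. All members, called list genes (up to 4 per direction), up to 2 defining genes per cell type and the 2 nearest profiles of each member are named.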

Additional observations from a re-analysis of the deposited data

How the results depend on the processing

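The count of members called was 0 between ISP and Veh cortex under every alternative run. Against control cortex, 1 member was called in Veh and 2 in ISP. At an adjusted p under 0.05 these became 0 and 1, and with all 12 libraries in 1 fit 0 and 1. That fit called 1169 of 15543 genes higher in ISP and 637 lower. With no filter the ISP count was 1, against 1108 of 19968 genes higher and 536 lower. Leaving out single libraries gave 0 to 2 for Veh and 1 to 2 for ISP. Of 15270 to 15493 genes tested, these fits called 0 to 188 higher and 0 to 294 lower in Veh. In ISP they called 299 to 1465 higher and 121 to 818 lower. Without ISP 14 and ISP 18 the ISP count was 0 by edgeR and, as an alternative chosen after seeing the data, 1 by DESeq2. Of 19528 genes that DESeq2 fit called 173 higher and 114 lower. DESeq2 without Veh 6, also chosen after seeing the data, called 3 members in Veh, against 470 of 19674 genes higher and 646 lower. No called value changed sign. The list fits without ISP 14 and ISP 18 were also chosen after seeing the data. The number of all genes called moved more: DESeq2 called 185 higher and 217 lower between ISP and Veh cortex, where edgeR called 0 and 0 (2334 at an unadjusted p under 0.05), 486 and 623 in Veh against control, where edgeR called 156 and 181, and 1450 and 857 in ISP against control, where edgeR called 1026 and 521. In Veh against control edgeR called 9 and 19 with all 12 libraries in 1 fit and 0 without control 21, and in ISP against control 71 and 19 without ISP 14 and ISP 18; the cause was not tested. No paired analysis was possible because the groups share no replicate numbers. Depth limits Tnc, with 2 to 173 reads per library, and Acan, with 70 to 205. The control group has no stated surgery or day, so that stroke and other differences from it cannot be told apart.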
